A study of Mus musculus with 12 samples.

Results

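The PMA list of HP1γ-associated RNA holds 2609 genomic regions. Both deposited lists of the series have 12622 rows together, and a stretch found in both is counted in each. All rows of the PMA list were taken, with no further selection. A region in it is a stretch of the mouse genome (build mm9) where RNA recovered with HP1γ exceeded RNA of the chromatin input in cells given a phorbol ester. The list is described by itself below: where its regions lie, how wide they are, which replicates they name, how strong they are and how they are spaced.

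The cells are a line made from HP1γ (Cbx3) knock-out mouse embryonic fibroblasts in which expression of the protein was restored, and the labels do not say whether the line is 1 clone. The 6 libraries labelled as PMA-treated all carry this genotype, and the cells were treated with 100 nM PMA (phorbol 12-myristate 13-acetate, dissolved in DMSO) for 30 min when nearly confluent. They are 3 input and 3 HP1γ immunoprecipitate (IP) libraries. The other 6 libraries are the same kinds of sample without PMA, and the labels do not say whether those cells received DMSO. The series as given here has neither a mock IP nor an HP1γ IP of the knock-out cells, so RNA that sticks unspecifically to the IP cannot be told apart from RNA associated with HP1γ. The list holds no values per library and no levels per gene. Read depth and the error between cultures are therefore unknown, and the fibroblast origin of the cells was not checked against marker genes.

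HP1γ is one of the mammalian heterochromatin protein 1 family. Its chromodomain binds methylated histone H3, its chromoshadow domain pairs it with other proteins, and the hinge between them can bind RNA. Besides heterochromatin it is found along the bodies of transcribed genes, where it has been linked to transcript elongation and splicing. PMA activates protein kinase C, and a short exposure induces immediate early genes in fibroblasts. No annotation of mm9 was used, and regions are therefore given by their coordinates, without the genes or gene parts they lie in. The strand column of the list was not used.

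Most regions were between 500 and 1500 bp wide. They covered 2.29 Mb in all, with a median width of 780 bp (exact 95% interval of the median 766 to 793) and a middle range of 621 to 1032 bp between the quartiles. Of the 2609 regions, 2238 (85.8%) were 500 to 1500 bp wide, 204 were under 500 bp and 47 were over 2000 bp. The narrowest, chr10:42560363-42560714, measured 352 bp. It had a fold enrichment of 3.46, close to the median of the list, but a −log10 q of only 1.80. The widest, chr18:61820112-61824580, measured 4469 bp and had a fold of 3.37 with a −log10 q of 15.7. Next in width came chr13:56192852-56196936 (4085 bp, fold 5.36), chr17:12950716-12954236 (3521 bp, fold 3.12) and chr11:88165492-88169004 (3513 bp, fold 4.45).

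**Figure D1:**
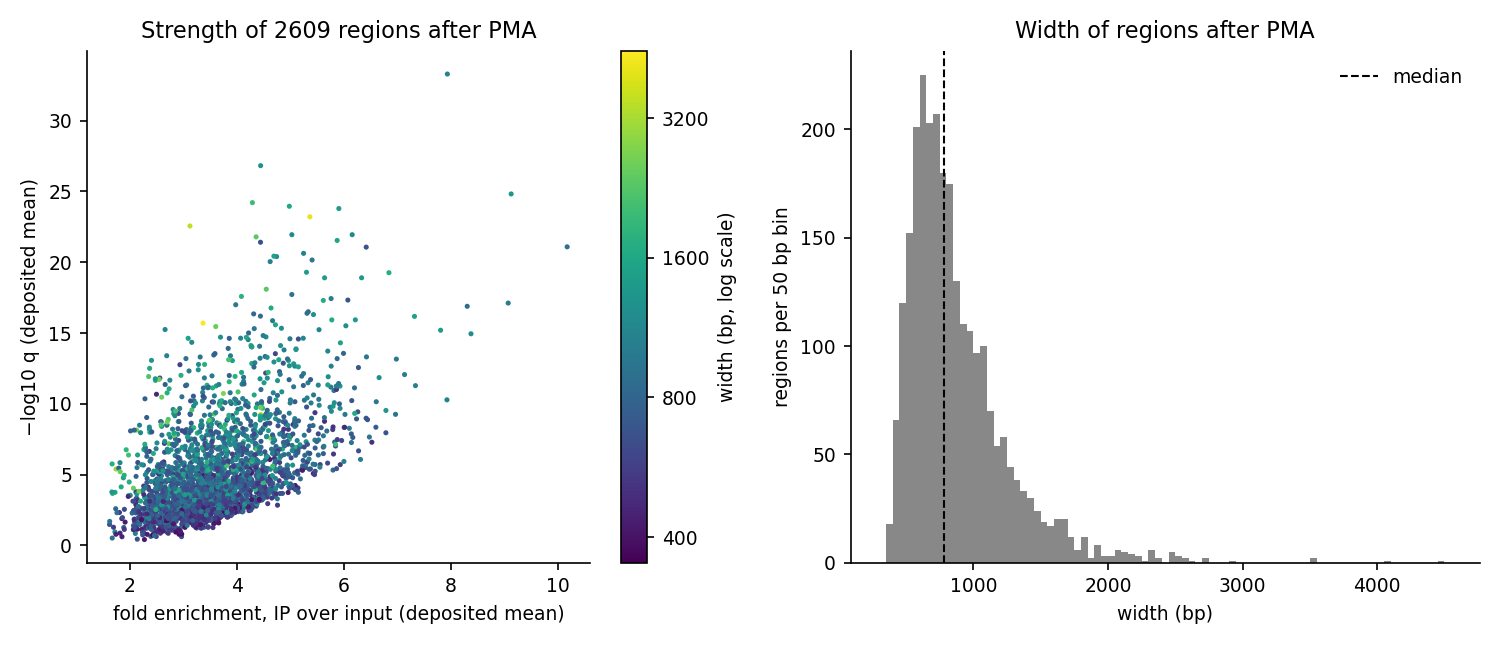
Left, each point is 1 of the 2609 regions, with its deposited fold enrichment of IP over input on the x axis, its deposited −log10 q on the y axis and its width as colour (log scale). Right, the number of regions per 50 bp bin of width, with the median of 780 bp dashed. High −log10 q was found at moderate fold in wide regions (light points at the upper left), and folds over 8 were rare.

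Every region named peaks of replicates 2 and 3, and none named a peak of replicate 1. Why replicate 1 is absent is not stated, nor whether peaks of replicates 2 and 3 were required for a row. Each row names the peaks that were joined in it, called member peaks here, by replicate and running number. The 2609 regions held 8386 member peaks, 4382 of replicate 2 and 4004 of replicate 3, and each region had at least 1 of either. No region had fewer than 3. No region had 1 peak in each of these replicates, and each listed region held at least 2 peaks of 1 replicate. In all, 1236 regions (47.4%) had 2 member peaks of replicate 2 and 1 of replicate 3, and 944 (36.2%) had the reverse. Only 253 (9.70%) had 2 of each. Regions with 3 or more member peaks of a single replicate numbered 121 for replicate 2 and 72 for replicate 3.

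Replicate 2 gave more of the paired member peaks although fewer of its peaks were numbered. The member peak numbers rose along the list in both replicates and were consecutive within every region, as they would be if each peak of a replicate was numbered in genome order. The highest numbers, 49502 in replicate 2 and 92243 in replicate 3, are then lower bounds on the peaks that were called. On that reading replicate 3 had 1.86 times as many peaks as replicate 2, yet 1639 regions held 2 or more peaks of replicate 2 and 1314 held 2 or more of replicate 3. The list took up 8.85% of the numbered peaks of replicate 2 and 4.34% of those of replicate 3. The filter that left out the rest is not stated.

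Regions of more member peaks were wider, while their folds were similar. A region is made of the peaks joined in it, so greater width with more peaks is in part built in. Median width was 732 bp in the 2180 regions of 3 member peaks (719 to 742), 1095 bp in the 333 regions of 4 (1052 to 1135), 1443 bp in the 67 regions of 5 (1325 to 1695) and 1941 bp in the 29 regions of 6 to 8 (1577 to 2332). The intervals of the classes of 3, 4 and 5 were separate, and those of the last 2 classes overlapped. The median folds in the same classes were 3.50, 3.53, 3.34 and 3.67, with overlapping intervals. The median −log10 q was 4.17 (4.06 to 4.33), 4.57, 4.80 and 6.20 (4.72 to 8.11), and the intervals of the first and last class were separate. Regions of 2 peaks of replicate 2 and 1 of replicate 3 did not stand apart from those with the reverse: their median widths were 727 and 736 bp, and their median folds 3.50 and 3.49. The fullest region, chr18:32586316-32588620, joined 8 peaks (3 and 5) over 2305 bp, with a fold of 3.13. It was followed by 3 regions of 7 peaks, each with 5 of replicate 2 and 2 of replicate 3. These were chr2:33076234-33078981 (fold 4.63), chr2:60605444-60607508 (fold 4.20) and chr7:119988443-119991052 (fold 2.70).

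**Figure D2:**
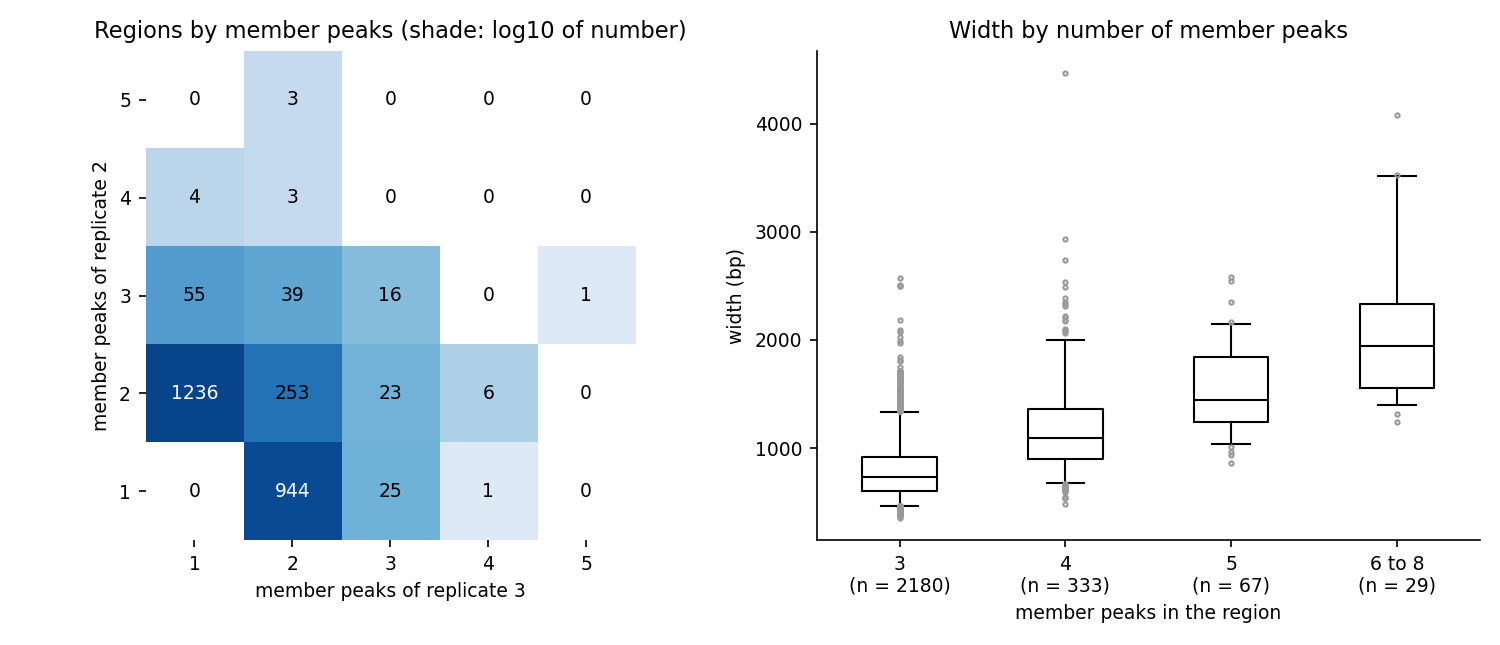
Left, the number of regions for each combination of member peaks of replicate 2 (y axis) and replicate 3 (x axis), shaded by the log10 of the number. Right, the width of regions in bp by number of member peaks, with the median, the quartiles, whiskers at the 5th and 95th percentiles and points beyond them. The cell of 1 and 1 is empty, 2180 regions sit in the cells of 3 member peaks, and median width was 732, 1095, 1443 and 1941 bp from 3 to 6 or more member peaks.

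Enrichment over input was moderate in most regions. The fold values, the authors' own values per region, had a median of 3.50 (3.46 to 3.53) and quartiles of 2.97 and 4.12. Folds of 2 to 5 were found in 2380 regions (91.2%), folds over 5 in 196 and folds under 2 in 33. The median −log10 q was 4.24 (4.13 to 4.39), with quartiles of 2.89 and 6.51. A −log10 q of at least 3, a mean on the log scale, was reached by 1907 regions (73.1%) and one of at least 10 by 225 (8.62%).

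Fold and −log10 q ranked the regions differently. Across the 2609 regions their Spearman rho was 0.49 (Pearson r = 0.53). For width and −log10 q rho was 0.47 (r = 0.43), and for width and fold only 0.09 (r = 0.06). These are descriptions across regions that share the same libraries, and regions are not independent. From the lowest to the highest quartile of fold, the median −log10 q went from 3.07 through 3.68 and 4.23 to 6.68. From the narrowest to the widest quartile it went from 2.97 through 4.04 and 4.67 to 6.08, while the median fold stayed between 3.41 and 3.58. The 47 regions over 2000 bp had a median −log10 q of 8.52 at a median fold of 3.37.

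The 20 regions with the highest fold ranged from 6.52 to 10.2 and lay on 13 chromosomes. They were 516 to 1703 bp wide, 18 of them had 3 member peaks, and 14 had no other region within 10 kb. In the whole list, 2180 of 2609 regions had 3 member peaks and 1510 had no other region within 10 kb. Their −log10 q ran from 7.29 to 33.3. The first was chr8:127951269-127952167 (fold 10.2, −log10 q 21.1), which lay 693 kb from its nearest neighbour in the list. Next came chr7:52074894-52076235 (fold 9.12) and chr19:24343382-24344405 (fold 9.07), the latter with 2 peaks of each replicate. Chromosome 19 held another of the first 5, chr19:18674947-18675830, with a fold of 8.30 and a −log10 q of 16.9. The fourth, chr14:76298579-76299775, had a fold of 8.37 and a −log10 q of 15.0.

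Of the other high folds, chr10:76226802-76227845 had 7.92 with a −log10 q of 10.3. The region chr8:8653689-8655105 had 7.80 and stood 2701 kb from any other. Another 6 of the 20 had a neighbour within 10 kb. They included chr17:26779931-26781408 (fold 7.32), 151 bp from its neighbour, chr11:97514931-97515970 (fold 7.13) and chr4:138828933-138829914 (fold 6.98), which was 1 of 5 regions in a row. The list's twentieth was on the X chromosome, chrX:130744837-130745352, with a fold of 6.52. It was 516 bp wide and 9233 kb from the next region. The highest fold of a chromosome was at least 5.34 on all 20 chromosomes, lowest on chromosome 16 (chr16:91705655-91706330).

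The 10 regions with the highest −log10 q were mostly others, and wider. Only 2 of them were among the 20 highest by fold, and they measured 1085 to 4085 bp. A neighbour within 10 kb was found for 8 of the 10, against 42.1% of all regions. The region chr5:101092980-101094064 led with a −log10 q of 33.3 and ranked sixth by fold, at 7.93. The second, chr18:69833405-69834679, reached 26.8 at a fold of 4.44. They were followed, after the chr7 region named above, by chr15:76920465-76922455 and chr14:26408850-26410450, which had −log10 q of 24.2 and 24.0 at folds of 4.29 and 4.98. Lowest in fold among the 10 was the 3521 bp region chr17:12950716-12954236. Its fold of 3.12 was below the median of the list, and its −log10 q was 22.6.

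The 5 lowest folds lay on chromosomes 7, 14 and 17, and the 33 folds under 2 on 15 chromosomes. The regions chr14:69863794-69864491 and chr14:69899817-69900758 had the lowest folds of the list, both 1.62, with −log10 q of 1.48 and 1.70. They were followed by chr17:13006757-13008095 and chr17:12947074-12948755, both at 1.67, whose −log10 q were 3.77 and 5.76. The fifth, chr7:80580414-80581309, had a fold of 1.67 and a −log10 q of 0.52.

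Distances between regions ran from 20 bp to 32.6 Mb. The distance between neighbouring regions on a chromosome, from edge to edge, had a median of 96.2 kb with quartiles of 9.18 and 898 kb. Of the 2589 distances, 680 were up to 10 kb, 150 of these under 1 kb, and 608 were over 1 Mb. By this measure 1099 regions (42.1%, Clopper-Pearson 95% bounds 40.2 and 44.0, for counting error alone) had another region within 10 kb, and 1510 did not. Regions linked by distances of up to 10 kb are called a group below. There were 419 groups, of which 274 were pairs, 91 had 3 regions, 28 had 4 and 26 had 5 or more.

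Peaks that are not in the list also lay near listed regions. If peaks were numbered in genome order, the numbers between 2 neighbouring regions count the peaks that were called there and left out. Between regions 1 to 10 kb apart these amounted to 494 peaks per Mb in replicate 2 and 601 in replicate 3. Up to 1 kb, where little room is left between regions, they came to 246 and 361. Those values rest on only 17 and 25 peaks over 0.069 Mb. Between regions 10 to 100 kb apart the values were 221 and 349 per Mb, between those 100 kb to 1 Mb apart 46.5 and 84.7, and beyond 1 Mb 11.2 and 23.9. Regions 1 to 10 kb apart had a median of 2 unlisted peaks of each replicate between them, and only 35 of 530 such pairs had none. Each listed region held at least 3 peaks close together, and the part of this in the spacing was not tested.

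**Figure D3:**
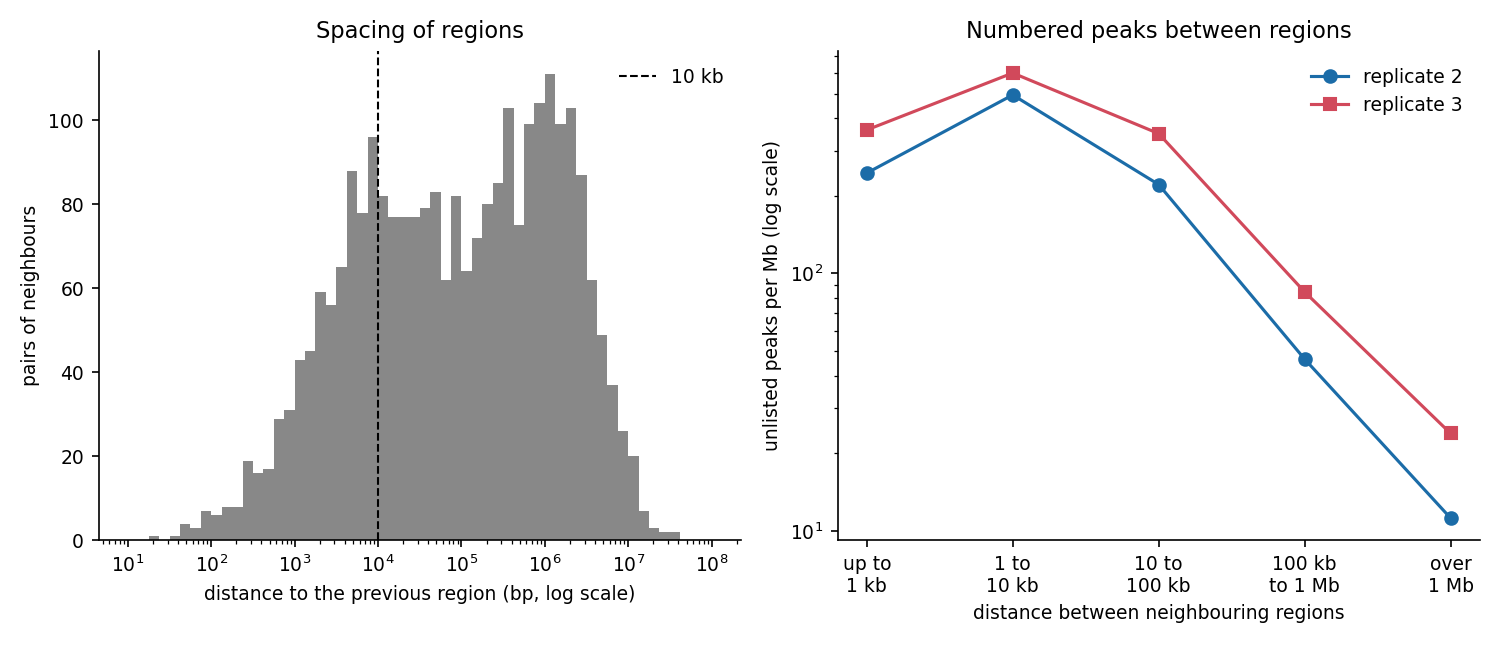
Left, the number of neighbouring pairs of regions by the distance between them in bp (log scale), with 10 kb dashed. Right, peaks numbered in replicate 2 or 3 but not in the list, per Mb of the sequence between neighbouring regions (log scale), by the distance between those regions. Unlisted peaks were densest between regions 1 to 10 kb apart and fell to 11.2 and 23.9 per Mb beyond 1 Mb. The points up to 1 kb rest on 17 and 25 peaks.

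Regions in groups were wider and had higher −log10 q than single ones, but not higher folds. Median width was 737 bp for single regions (725 to 755), 809.5 bp in pairs, 849 bp in groups of 3, 923.5 bp in groups of 4 and 1007 bp in groups of 5 or more (923 to 1102). The median −log10 q in the same order was 4.06, 4.18, 4.57, 5.07 and 5.75. Median folds were 3.52 (3.48 to 3.56), 3.49, 3.45, 3.63 and 3.18 (3.04 to 3.35), so that the fullest groups had the lowest. The 166 regions of this last class came from only 26 groups. A single group on chromosome 17, with a median fold of 2.20, gave 14 of them. The intervals treat regions as independent and are too narrow where neighbours are alike. A −log10 q of at least 10 was found in 97 of 1510 single regions (6.42%) and in 35 of the 166 regions in groups of 5 or more (21.1%). A fold over 5 was found in 8.15% and 6.02% of them. Across all regions the rank correlation of group size with −log10 q was low (rho = 0.13), and that with fold was −0.06.

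Neighbouring regions resembled each other in fold. For the 680 pairs up to 10 kb apart, the folds of both regions had a Spearman rho of 0.37 (Pearson r = 0.31). Within these, rho was 0.26 for the 150 pairs up to 1 kb apart and 0.40 for the 530 pairs 1 to 10 kb apart. For pairs 10 to 100 kb apart rho was 0.21 (619 pairs), for those 100 kb to 1 Mb apart −0.03 (682 pairs) and for those over 1 Mb apart 0.02 (608 pairs). Without the fullest group rho up to 10 kb was 0.34. Neighbours share their libraries, and no p is given for this description. The −log10 q of neighbours up to 10 kb apart was less alike, with a rho of 0.14. Within groups the fold had an SD of 0.77, against 0.91 over all grouped regions.

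The group with the most regions lay on chromosome 17. It held 14 regions over 74.3 kb (chr17:12937159-13011456) and was also the longest group. Its regions were 795 to 3521 bp wide and covered 32.0% of the stretch. All 14 folds, from 1.67 to 3.12, were below the median of the whole list. Their median was 2.20. Their −log10 q ran from 2.59 to 22.6, with a median of 6.58 that was above the median of the list. The strongest was the 3521 bp region named above. The first region, chr17:12937159-12939381, had a fold of 2.35 and a −log10 q of 11.9, and the last, chr17:13009831-13011456, had 2.37 and 12.5. Between the 14 regions lay 33 unlisted peaks of replicate 2 and 42 of replicate 3, against 29 and 18 member peaks in them. Of the 14 regions, 1 had more member peaks of replicate 3 than of replicate 2, chr17:12982505-12984170 with 1 and 2.

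The other 9 of the 10 fullest groups held 7 to 9 regions each. The second, chr12:81327988-81353153, had 9 regions over 25.2 kb with folds of 2.86 to 4.74 and a highest −log10 q of 20.4. Chromosome 15 held 3 of the 10. The group chr15:31162934-31195386 had 8 regions with folds of 3.26 to 6.15, and its median of 4.29 was the highest of the 10 groups. In chr15:27502464-27518726, 8 regions took up 48.1% of 16.3 kb, with a median fold of 2.92. In chr15:85508711-85536915, 7 regions had a median fold of 2.67 and a highest fold of 4.64.

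Another group of 8, chr3:108783336-108801393, had narrow folds of 2.79 to 3.86. Groups of 7 lay at chr2:33072502-33093753 (median fold 3.57), chr14:26537337-26567498 (3.61), chr11:80307609-80337979 (2.98) and chr17:3326666-3355216 (2.39). In the last, all folds, 2.23 to 2.69, were below the lower quartile of the list. In 7 of the 10 groups the median fold was below that of the list. A fold over 5 was found in 3 of their 82 regions, against 196 (7.51%) of all 2609. All 3 lay in the group chr15:31162934-31195386. Among the 5 longest groups, 1 had fewer regions: chr7:103702443-103737131 held 6 over 34.7 kb, with folds of 2.82 to 3.30.

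**Figure D4:**
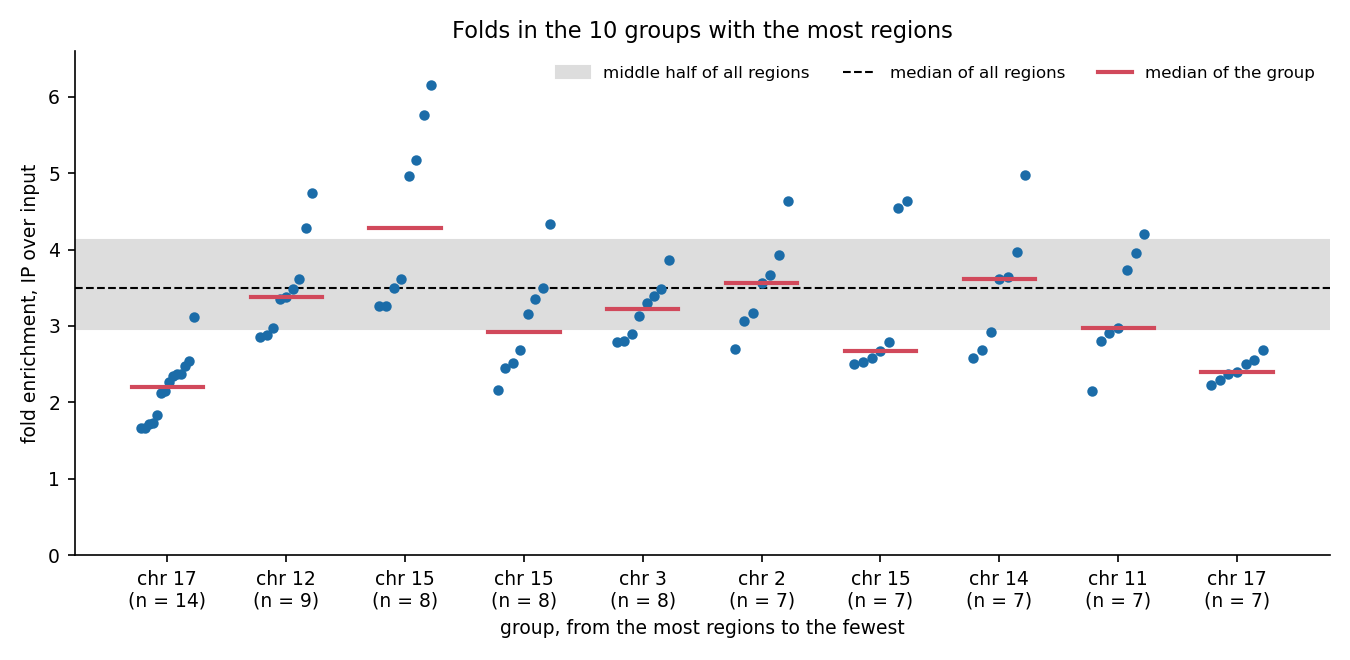
Fold enrichment of IP over input (y axis) of each region in the 10 groups with the most regions (x axis, by chromosome, from the most regions to the fewest), with the median of each group as a bar. The grey band spans the quartiles of all 2609 regions, 2.97 to 4.12, and the dashed line is their median. Both chromosome 17 groups sit low, with medians of 2.20 and 2.39, and the second chromosome 15 group from the left has a median of 2.92.

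All 19 autosomes and the X chromosome held regions, and the number per Mb differed between them. Chromosome 10 had the most, 220 regions or 8.43% of the list (7.39 to 9.57). Measured between the first and last region of each chromosome, density was 1.77 regions per Mb on chromosome 10, 1.73 on chromosome 17 and 1.56 on chromosome 8. On the other autosomes it was 0.717 (chromosome 16) to 1.32 (chromosome 15). The X chromosome had 18 regions, or 0.120 per Mb, against 1.11 per Mb on the autosomes together.

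The density of regions followed the density of numbered peaks. Numbered peaks too were counted from the first to the last region of each chromosome, and peaks outside that stretch are left out. Over the 19 autosomes, the Spearman rho of regions per Mb with numbered peaks per Mb was 0.89 for replicate 2 and 0.83 for replicate 3. This is a description of chromosomes in the same libraries, and the regions are made of such peaks. Chromosome 10 had 26.3 and 46.0 numbered peaks per Mb in replicates 2 and 3, and chromosome 16 had 14.9 and 31.2. The portion of numbered peaks that ended up in regions also differed. It was highest on chromosome 10, at 11.3% of replicate 2 (10.2 to 12.4) and 5.98% of replicate 3 (5.38 to 6.63). On the autosomes it was lowest on chromosome 11 for replicate 2, at 7.25%, and on chromosome 16 for replicate 3, at 3.41%.

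On the X chromosome both the numbered peaks and the portion of them in regions were low. It had 4.25 numbered peaks per Mb in replicate 2 and 11.0 in replicate 3, which was 0.207 and 0.290 times the value on the autosomes. Regions per Mb were 0.108 times the autosomal value. From the first to the last X-linked region, 32 of 636 numbered peaks (5.03%, 3.47 to 7.03) of replicate 2 were in regions. For replicate 3 it was 26 of 1642 (1.58%, 1.04 to 2.31). These intervals count each peak as independent, although peaks enter the list joined in regions, so they are too narrow. On the X the 26 peaks of replicate 3 came from 18 regions. As printed, the interval for replicate 3 lay below that of every autosome. The interval for replicate 2 overlapped those of chromosomes 5, 6, 11 and 13. Numbered peaks of replicate 3 outnumbered those of replicate 2 by 2.58 times on the X, and by 1.67 to 2.09 times on single autosomes.

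The folds of the 18 X-linked regions were in the range of those elsewhere. Their median was 3.77 (3.11 to 4.22), an interval that overlapped that of every autosome. Only 2 of them formed a group, chrX:13159686-13160607 (fold 3.11) and chrX:13162327-13163353 (fold 4.21). Next to the X-linked region of fold 6.52 named above, the strongest was chrX:103177216-103177965, with a fold of 4.97 and a −log10 q of 11.7. The weakest by fold was chrX:139977913-139978673, at 2.40 and a −log10 q of 1.13.

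**Figure D5:**
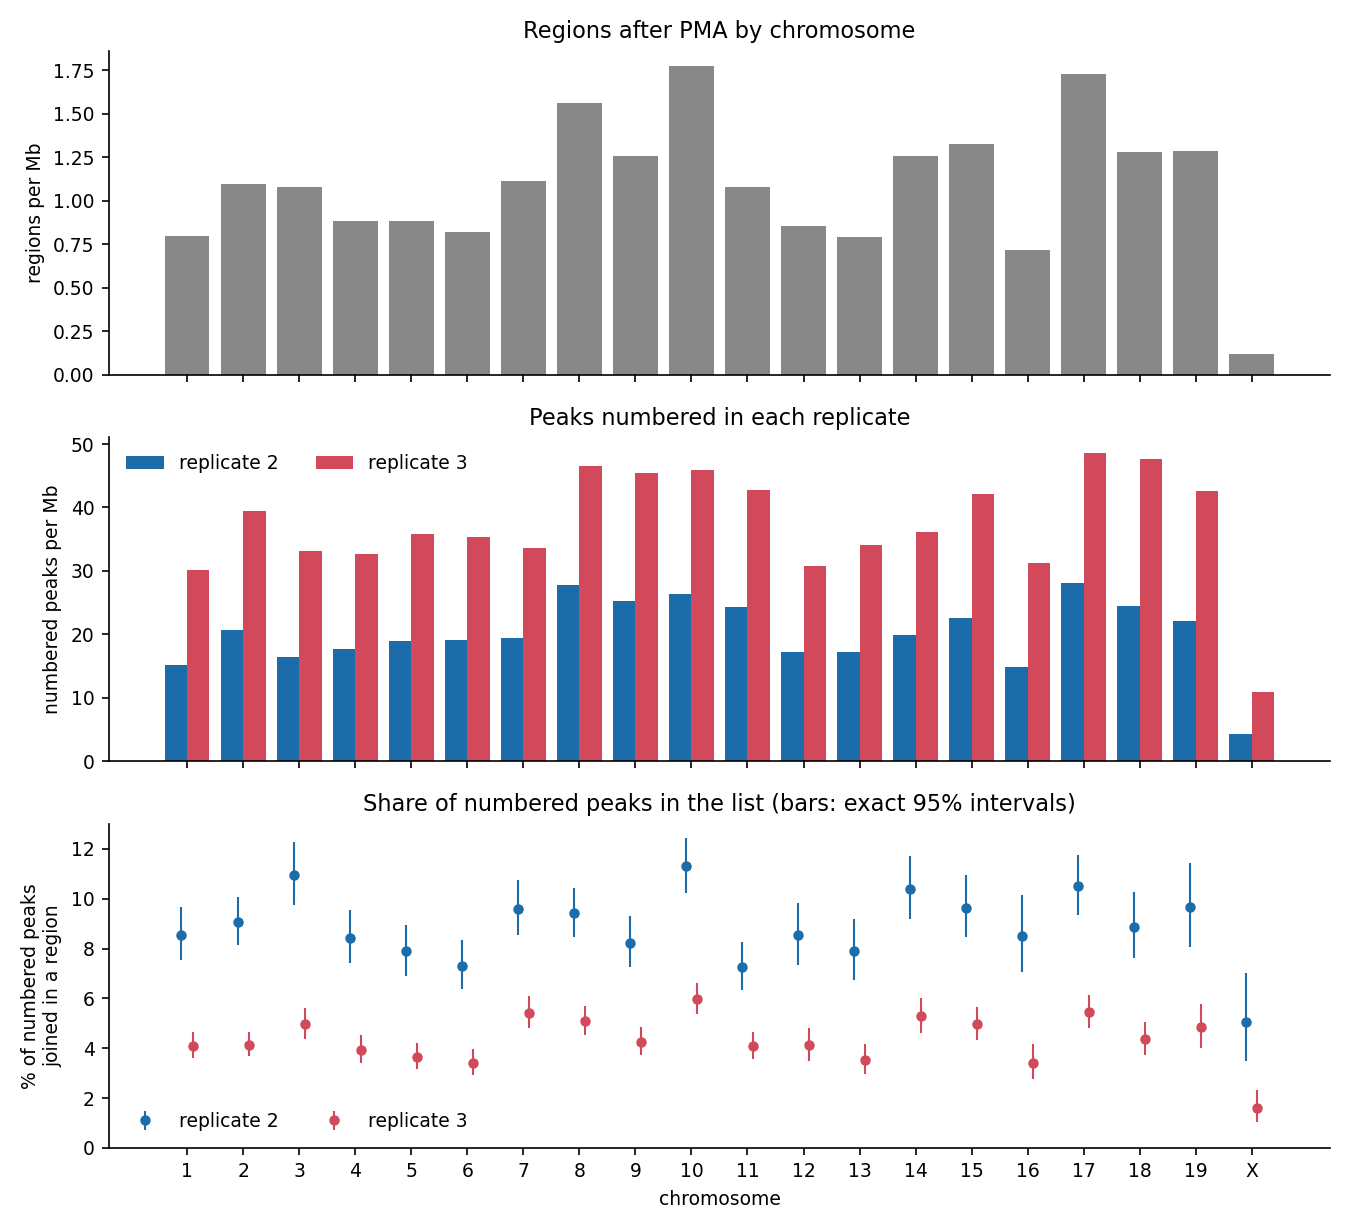
Top, regions per Mb by chromosome. Middle, peaks numbered in replicate 2 and in replicate 3 per Mb, counted from the first to the last region of each chromosome. Bottom, the percentage of numbered peaks that were joined in a region, with exact 95% intervals as bars. Chromosomes 10 and 17 had the most regions per Mb, and the X chromosome was lowest in all 3 panels.

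Median folds by chromosome stayed in a narrow range. They ran from 3.21 on chromosome 18 (3.06 to 3.51) to 3.83 on chromosome 11 (3.59 to 3.98). These end points had separate intervals, while neighbours in the order overlapped. Chromosomes 10 and 17, the densest, had medians of 3.47 and 3.33. The share of regions with a neighbour within 10 kb was highest on chromosome 14, at 54.2% of 144 regions, and on chromosome 15, at 50.8% of 132. On the autosomes it was lowest on chromosome 16, at 26.6% of 64.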

How the data were processed

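RNA of HP1γ IP and chromatin input was sequenced as 65 bp single-end reads from directional libraries, per the labels' protocols. Per the submitters' processing notes, the tools were MACS2 2.1.0, STAR 2.5.0a, cutadapt 1.11, Subread with featureCounts 1.4.6-p3, and deepTools, and the build was mm9. Their roles, and how peaks were called, joined and filtered, are not stated there. The deposited values used are the fold enrichment of each region (a ratio, IP divided by input) and its −log10 q, while the deposited −log10 p and score were left aside. They are read as the authors' means over member peaks. Read depth is unknown.

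Widths, distances, groups, member peaks and shares were obtained in Python 3.11.15 (numpy 2.4.6, scipy 1.17.1, pandas 2.3.3; figures, matplotlib 3.10.9). Starts are printed 1-based. Shares carry exact Clopper-Pearson and medians order-statistic 95% intervals, which cover counting error only. They treat regions, or peaks, as independent. No test across samples was possible, because the list has no values per library. The code was tested on a simulated list of 1385 regions and recovered its groups and peak numbers. The gene tables at hand are of GRCm38 and were not used.

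The regions and alternatives were chosen with earlier results of these data known. Named regions are the 20 with the top folds, the 10 with the top −log10 q, the 5 widest, narrowest, fullest and lowest by fold, the highest of each chromosome, the 10 fullest and 5 longest groups and the 5 longest stretches without a region, of which some are given. X-linked regions beyond these were named after their values were seen. Alternatives were a stricter q, more member peaks, merging, other distances and 1 replicate left out.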

Additional observations from a re-analysis of the deposited data

How the results depend on the processing

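No paired analysis was possible because the list holds no values per library and no result comes from a test across samples. Of 59 alternative values for 13 results, 33 stayed within the interval of the reported value, or within 1.5 times it for the number of regions. None changed sign, which only the rank correlations could do. For a rank correlation the interval was a Fisher z interval, not printed here, which treats regions as independent. The share of regions with both replicates could not move, since every region of the list has both. At −log10 q of 3 or more, median width was 844 bp, median fold 3.68, median −log10 q 5.25 and the share with a neighbour within 10 kb 37.0%. With at least 4 member peaks, 429 regions were left, with a median width of 1187 bp, a median −log10 q of 4.70 and a neighbour share of 17.5%. Merging rows up to 1 kb apart gave a neighbour share of 36.3%. Distances of 5, 20 and 50 kb gave 30.7%, 52.2% and 63.4%. With 1 replicate left out and 3 member peaks required, ranges were 72 to 121 regions, widths of 1450 to 1501.5 bp, folds of 3.41 to 3.54, −log10 q of 4.82 to 5.27, neighbour shares of 4.96% to 8.33% and chromosome 10 shares of 9.72% to 12.4%. None of these regions was on the X. These lists leave out every region of exactly 3 member peaks by construction, since each of those draws on both replicates. All alternatives except merging keep the deposited bounds and folds, so these changes reflect which regions remain or count as near. The X share and the likeness of neighbouring folds were examined under alternatives chosen after seeing the data.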

Other observations

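The 5 longest stretches without a listed region still held numbered peaks of both replicates. On the X, chrX:35783359-68403014 (32.6 Mb) held 100 unlisted peaks of replicate 2 and 312 of replicate 3, and chrX:71281712-103177215 (31.9 Mb) held 135 and 345. The stretch chrX:103177966-130744836 (27.6 Mb) was poorer, with 15 and 57. On autosomes, chr12:41894713-70959838 (29.1 Mb) held 124 and 337, and chr1:99772172-122128008 (22.4 Mb) held 174 and 329. These counts assume that peaks were numbered in genome order.

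In 64 regions the −log10 q fell short of −log10 of 0.05. Their median fold was 2.48 and none had a fold over 5. Their median width was 537.5 bp, 20 of them had a neighbour within 10 kb, and 1 had more than 3 member peaks. The 225 regions whose −log10 q reached 10 had a median fold of 4.51 and a median width of 1070 bp, and 128 (56.9%) had a neighbour within 10 kb. Of the 47 regions over 2000 bp, 35 (74.5%) had such a neighbour and 39 had more than 3 member peaks. Over all 2609 regions, 1099 (42.1%) had such a neighbour, 429 (16.4%) had more than 3 member peaks and 196 had a fold over 5.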
